A study of Mus musculus with 12 samples.

Results

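The 4 Hox gene clusters were examined in the H3K79me1 and H3K79me2 peak lists of reprogramming mouse embryonic fibroblasts. Members were the peaks of all 8 lists that overlapped 1 of 4 windows of the mm9 build: HoxA at chr6:52100000-52215000, HoxB at chr11:96050000-96230000, HoxC at chr15:102750000-102870000 and HoxD at chr2:74500000-74605000. The windows measured 115, 180, 120 and 105 kb, 520 kb in all. Of 933917 peaks, 846 lay in them, 208 of H3K79me1 and 638 of H3K79me2. HoxA held 291 of these peaks, HoxB 199, HoxC 194 and HoxD 162.

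The study asked how AF10 (Mllt10), a cofactor of the histone methyltransferase DOT1L, bears on cell identity, and compared cells with and without it. Controls carried AF10 fl/fl and had received the empty adenovirus Ad5-CMV-Empty, and the Cre group had received Ad5-CMV-Cre and is labelled AF10 -/-. Both groups also carried OSKM (the reprogramming factors OCT4, SOX2, KLF4 and MYC) and rtTA, the doxycycline-responsive activator. Both received doxycycline at 2 µg/mL from 2 days after the virus, grew on DR4 feeder fibroblasts and were taken at day 4 of reprogramming, so the chromatin of feeder cells may be present in every library. Each mark had 2 control and 2 Cre libraries. No label says that replicates came from separate cultures, so every p-value measures the spread between these libraries only, which may be technical. The lists name no gene, so neither the loss of AF10 nor the cell type was checked against marker genes.

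Hox genes encode homeodomain transcription factors that give cells their position along the body axis. Within a cluster the genes stand in the order of the body regions in which they act, with the group 1 genes at the anterior end and the group 13 genes at the posterior end, and fibroblasts keep a Hox pattern of their body region of origin. DOT1L methylates lysine 79 of histone H3 over transcribed genes, and DOT1L and AF10 are known for sustaining HOXA genes in leukaemias with MLL or AF10 fusions.

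All 38 member genes were found in a RefSeq table of the build GRCm38.p6. That table is not of the build of the peaks, so it gave the order of the genes and tied no gene to a peak. Genes were ordered by the outermost start of their transcripts, so a gene with a long transcript, such as Hoxb3 or Hoxd3, can stand out of its numerical place. HoxA ran Hoxa2, Hoxa3, Hoxa4, Hoxa5, Hoxa6, Hoxa7, Hoxa9, Hoxa10, Hoxa11 and Hoxa13. HoxB ran the other way, from Hoxb13 through Hoxb9, Hoxb8, Hoxb7, Hoxb6, Hoxb5, Hoxb3, Hoxb4 and Hoxb2 to Hoxb1. HoxC ran from Hoxc13 through Hoxc12, Hoxc11, Hoxc10, Hoxc9, Hoxc8, Hoxc6 and Hoxc5 to Hoxc4. HoxD ran from Hoxd13 through Hoxd12, Hoxd11, Hoxd10, Hoxd9, Hoxd8, Hoxd3 and Hoxd4 to Hoxd1. The low-coordinate end was thus the Hoxa2 side in HoxA and the group 13 side in the other 3 clusters. Positions below are distances from the low-coordinate end of each window.

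The clusters also hold 6 microRNA genes in that table. The arms of 5 of them whose seed recurs in another cluster are shown, and Mir615 of HoxC, whose seeds occur in no other cluster, is not. The sequences are from RefSeq (GRCm38.p6), 5′ to 3′, with the seed (bases 2 to 8) in capitals. No level was measured for them here.
mmu-miR-196b-5p, HoxA, between Hoxa9 and Hoxa10: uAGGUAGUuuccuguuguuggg
mmu-miR-196a-5p, HoxB, between Hoxb13 and Hoxb9, and HoxC, between Hoxc10 and Hoxc9: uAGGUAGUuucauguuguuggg
mmu-miR-10a-5p, HoxB: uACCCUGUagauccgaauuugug
mmu-miR-10b-5p, HoxD: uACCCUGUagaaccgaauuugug
The miR-196 seed occurred in 3 clusters, beside group 9 genes in each, and the miR-10 seed in HoxB and HoxD.

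The lists differed widely in how much of the genome they covered, which touches every value below. Of the genome, 4.46% and 2.03% lay under H3K79me1 peaks in control replicates 1 and 2. The Cre libraries, again in the order of their numbers, had 2.28% and 0.0704%. H3K79me2 peaks covered 0.606% and 2.71% in the controls and 1.82% and 1.90% in the Cre libraries. H3K79me1 Cre replicate 2, with 12155 peaks against 117816 to 160119 in the other H3K79me1 lists, and H3K79me2 control replicate 1 stood apart. Read depth is unknown, since the lists hold no counts, and no counting interval could be given.

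H3K79me2 covered HoxA far more than the other clusters in every list. It covered 12.2% and 42.2% of the HoxA window in the controls, given here and below as replicate 1 and then replicate 2, and 37.1% and 34.8% in the Cre libraries. The lowest value belonged to the control list that was short over the whole genome, and the Cre values lay between the 2 controls. HoxC was covered at 4.59% and 21.8% in the controls and at 7.39% and 10.7% in the Cre libraries. HoxD was covered at 2.14% and 19.1% in the controls and at 17.6% and 15.2% in the Cre libraries. HoxB, the longest window, was covered at 2.41% and 16.7% in the controls and at 4.56% and 7.21% in the Cre libraries. In each cluster the groups overlapped, with both Cre libraries between the controls. HoxA alone held 53.7% and 38.9% of all covered Hox bases in the controls and 54.5% and 48.9% in the Cre libraries.

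The Cre minus control difference in H3K79me2 cover did not exceed the spread between libraries in any cluster. HoxA had 27.2% ± 21.2 (SD, n = 2) in control and 35.9% ± 1.62 (SD, n = 2) after Cre, a difference of 8.72 percentage points. HoxD had 10.6% ± 12.0 (SD, n = 2) and 16.4% ± 1.73 (SD, n = 2), a difference of 5.80 points. Both were positive because control replicate 1 was low: without it the differences were -6.30 and -2.69 points. HoxB had 9.58% ± 10.1 (SD, n = 2) and 5.88% ± 1.87 (SD, n = 2), a difference of -3.70 points. HoxC had 13.2% ± 12.2 (SD, n = 2) and 9.06% ± 2.36 (SD, n = 2), a difference of -4.12 points. The signs of HoxB and HoxC turned without control replicate 2, to 3.47 and 4.47 points. An exact permutation test, two-sided and with 6 arrangements, gave p = 1 for each of the 4 clusters, and the smallest p it can give is 0.333.

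**Figure D1:**
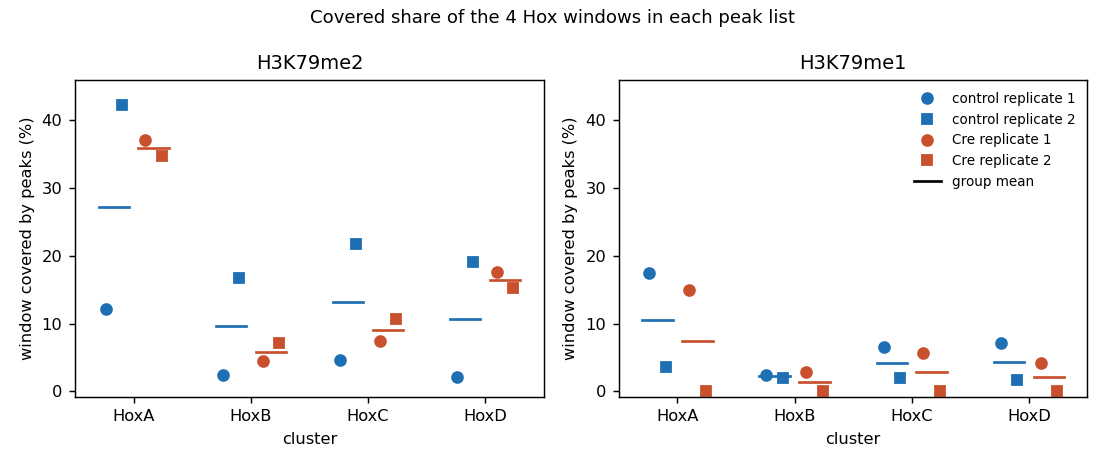
Percent of each Hox window covered by peaks, for H3K79me2 (left) and H3K79me1 (right), with 1 point per library and a line at each group mean of 2 libraries. HoxA has the highest H3K79me2 cover in every library, and the H3K79me1 points of Cre replicate 2 lie at 0 in all 4 windows.

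HoxA stood high among stretches of its size in all 4 H3K79me2 lists. Of 21487 tiles of 115 kb over the genome, 0.405%, 0.251%, 0.349% and 0.275% were covered at least as much in the 2 control and the 2 Cre lists. For HoxC the shares of same-size tiles were 3.21%, 2.03%, 8.81% and 5.02%, and for HoxD 8.20%, 3.05%, 2.68% and 2.93%. For HoxB they were 7.58%, 3.00%, 14.2% and 8.53%, the largest of the 4 clusters in both Cre lists, while HoxD had the largest in both controls. These shares include tiles with no peak and describe each list alone.

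To set each window against how much of the genome a list covered, the covered share of the window was divided by that of the whole genome. The 4 windows together stood at 8.28 and 8.87 times the genome's share in the controls and at 8.27 and 8.30 times after Cre, a log2 difference of -0.05 (exact two-sided permutation p = 0.667, n = 2 per group). The differences of single clusters had different signs, and none passed a test. HoxC stood at 7.56 and 8.04 in the controls and at 4.06 and 5.66 after Cre, with both Cre libraries below both controls and a log2 difference of -0.70. HoxB stood at 3.98 and 6.18 in the controls and at 2.51 and 3.80 after Cre, likewise without overlap, a log2 difference of -0.68. HoxD stood at 3.53 and 7.06 in the controls and at 9.71 and 8.02 after Cre, both Cre libraries above both controls, a log2 difference of 0.82. HoxA stood highest, at 20.1 and 15.6 in the controls, then 20.4 and 18.4 after Cre, with overlap and a log2 difference of 0.13 (exact permutation p = 0.667, n = 2 per group).

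For HoxB, HoxC and HoxD the exact permutation test gave p = 0.333, the smallest that the design allows, which passes no threshold. Such orders were also frequent elsewhere. Both Cre libraries lay below both controls in 17.9% of 180 kb tiles and 15.7% of 120 kb tiles, and above both controls in 21.6% of 105 kb tiles, over tiles with cover in all 4 lists. The opposite orders were seen in 19.7%, 20.9% and 14.5% of tiles of these sizes, and for tiles of the size of HoxA the shares were 15% below and 21.6% above. By size, 18.9% of those tiles had a log2 difference as low as that of HoxB, 15.8% as low as that of HoxC, and 11.1% as high as that of HoxD. The HoxD difference was 0.32 without control replicate 1 and 1.32 without control replicate 2. The HoxB difference was -0.37 without control replicate 2 and -0.38 without Cre replicate 1, and the HoxC difference was -0.46 without Cre replicate 1. With equal numbers of peaks per list the HoxB difference shrank to -0.07.

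Clusters were also compared within a list, without the genome's share. The covered share of HoxD was 0.467 and 0.878 times that of HoxC in the H3K79me2 controls and 2.39 and 1.42 times after Cre, so HoxD was the less covered of the pair in both controls and the more covered in both Cre libraries. This pair was chosen after its values were seen and was given no test, and how often pairs of tiles elsewhere turn in this way was not counted. The order turned in Cre replicate 2 when peaks below a −log10 p of 2 were left out, where HoxD had 0% and HoxC 0.118%. In H3K79me1 the same ratio was 1.08 and 0.850 in the controls and 0.739 in Cre replicate 1.

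**Figure D2:**
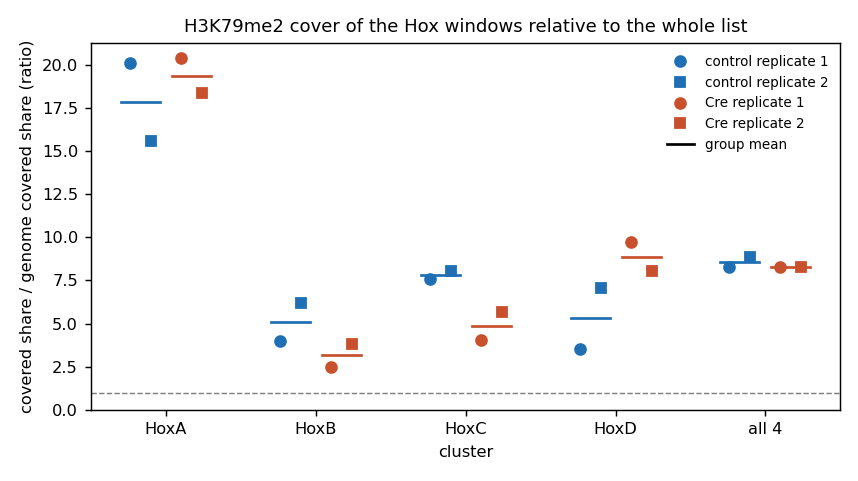
H3K79me2 covered share of each Hox window divided by the covered share of the genome in the same list, as a linear ratio, with 1 point per library, a line at each group mean of 2 libraries and a dashed line at a ratio of 1. Both Cre libraries lie below both controls in HoxB and HoxC and above both in HoxD, while the 4 windows together lie between 8.27 and 8.87 in all libraries.

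H3K79me1 covered less of the 4 windows than H3K79me2 in 3 of the 4 pairs of lists with the same group and number, and in Cre replicate 2 none of them. In control replicate 1 it covered more, 7.67% against 5.02%, where the H3K79me2 list was the short one. Among the clusters HoxA was again the most covered, at 17.5% and 3.62% in control replicates 1 and 2, 15.0% in Cre replicate 1 and 0% in Cre replicate 2. HoxC had 6.57% and 1.95% in the controls, 5.66% in Cre replicate 1 and 0% in Cre replicate 2. HoxD had 7.13% and 1.66%, then 4.19% and 0%, and HoxB had 2.47% and 1.94%, then 2.87% and 0%. Cre replicate 1 lay between the controls in HoxA, HoxC and HoxD and above both in HoxB. At its share of the genome, Cre replicate 2 would have covered 366 bp of the 520 kb, and 78.9% of tiles of the size of HoxA held no peak of that list. Tiles without a peak were thus the rule in that list, but these tiles were not matched to HoxA in cover. In control replicates 1 and 2 and Cre replicate 1, 37.8%, 59.6% and 47.9% of them held no peak. Only 9.82%, 18.9% and 4.33% were covered at least as much as HoxA in these lists. Whether the absence of Hox peaks goes beyond the shortness of the list was not tested.

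The differences in H3K79me1 cover were -3.05 points in HoxA, -0.771 in HoxB, -1.43 in HoxC and -2.30 in HoxD. By exact permutation, two-sided, p was 0.667 for HoxA, HoxC and HoxD and 1 for HoxB (n = 2 per group). Without Cre replicate 2 the values were 4.46 points in HoxA, 0.664 in HoxB, 1.40 in HoxC and -0.205 in HoxD. Without control replicate 1 they were 3.88 in HoxA, -0.506 in HoxB, 0.885 in HoxC and 0.438 in HoxD. Relative to the genome, the 4 windows stood at 1.72 and 1.11 in the controls and at 2.84 and 0 after Cre, so H3K79me1 lacked the strong excess that H3K79me2 showed. HoxA was the only cluster above the genome's share in all 3 lists with Hox peaks, at 3.92, 1.79 and 6.59.

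Within HoxA the 2 marks were densest in different places in the controls, and less so in the only Cre list with H3K79me1 peaks there. The 5 kb tile with the highest mean H3K79me2 cover ran from 80 to 85 kb (chr6:52180001-52185000) and was covered at 48.8% and 100% in the controls and at 99.2% and 92.0% after Cre. H3K79me1 covered 0% of that tile in both controls, 43.3% in Cre replicate 1, with 0% in Cre replicate 2. The tile with the highest mean H3K79me1 cover ran from 50 to 55 kb (chr6:52150001-52155000), at 54.1% and 3.38% in the controls, 35.7% in Cre replicate 1 and 0% in Cre replicate 2. It was the highest in no single list: control replicates 1 and 2 peaked at 55 to 60 kb (63.2%) and 40 to 45 kb (16.7%), and Cre replicate 1 at 80 to 85 kb. The tile from 80 to 85 kb was also the highest in every H3K79me2 list, in control replicate 2 level with that from 85 to 90 kb (100%). H3K79me2 was thus densest toward the Hoxa13 side in all lists, and H3K79me1 nearer the middle of the window in the controls.

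HoxA was also divided into 3 equal parts. The part on the Hoxa13 side held 66.7% and 54.8% of the H3K79me2 cover in the controls, then 61.5% and 59.7% after Cre. It held 8.79% and 10.9% of the H3K79me1 cover in the controls, and 36.6% in Cre replicate 1. The H3K79me2 share of this part was similar in both groups, and its H3K79me1 share was higher in the only Cre list with peaks here. The part on the Hoxa2 side held between 5.86% and 13.2% of the H3K79me2 cover in the 4 lists.

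In HoxD H3K79me2 lay on the group 13 side as well, which there is the low-coordinate end. The low-coordinate part of 3 held 51.8% and 60.3% of the H3K79me2 cover in the controls, then 69.4% and 69.3% after Cre. The part on the Hoxd1 side held 0% and 1.00% in the controls, then 0% and 2.44% after Cre, so that side was nearly bare. H3K79me1 lay mostly in the middle part of HoxD, with 69.3% and 100% of its cover in the controls and 67.2% in Cre replicate 1. The tile of highest mean H3K79me2 in HoxD, from 25 to 30 kb (chr2:74525001-74530000), was covered at 3.18% and 49.4% in the controls and at 46.2% and 51.5% after Cre. Control replicate 1 peaked instead at 55 to 60 kb (11.2%), and Cre replicate 1 at 5 to 10 kb (53.4%). H3K79me1 covered 0% of the 25 to 30 kb tile in both controls and 3.78% in Cre replicate 1. The highest H3K79me1 tile of HoxD, from 50 to 55 kb (chr2:74550001-74555000), was the same in all 3 lists with peaks, at 29.4% and 13.0% in the controls and 24.3% in Cre replicate 1. H3K79me2 covered it too, at 4.50%, 49.1%, 48.4% and 37.4% in the same order of lists.

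HoxC and HoxB were nearly free of both marks at their group 13 ends. In HoxC the low-coordinate part of 3 held between 0% and 4.81% of the cover in each of the 7 lists with Hox peaks, and in HoxB between 0% and 3.85%. In HoxC the highest mean over the 4 lists fell in the same tile for both marks, from 70 to 75 kb (chr15:102820001-102825000), although single lists peaked elsewhere. H3K79me2 covered it at 31.6% and 48.8% in the controls and at 28.4% and 29.2% after Cre. H3K79me1 covered it at 26.1% and 5.48% in the controls, 18.6% in Cre replicate 1 and 0% in Cre replicate 2. That tile was the highest in 1 list, H3K79me2 control replicate 1. The H3K79me1 lists peaked at 105 to 110, 100 to 105 and 85 to 90 kb, with 41.4%, 14.0% and 32.6%, and the other H3K79me2 lists at 60 to 65, 85 to 90 and 90 to 95 kb, with 81.0%, 35.5% and 35.5%. In HoxB the tile of highest mean H3K79me2, from 65 to 70 kb (chr11:96115001-96120000), was at 12.4% and 58.5% in the controls and at 21.2% and 27.2% after Cre. The highest mean H3K79me1 cover of HoxB, from 150 to 155 kb (chr11:96200001-96205000), was at 36.5% and 4.28% in the controls and 17.5% in Cre replicate 1. It rested on control replicate 1, since control replicate 2 peaked at 100 to 105 kb (17.5%) and Cre replicate 1 at 65 to 70 kb (17.7%). The H3K79me2 lists of HoxB also peaked in different tiles, at 145 to 150 and 65 to 70 kb in the controls and at 110 to 115 kb in both Cre libraries. Of 36 HoxB tiles, 17 held no H3K79me1 and 12 no H3K79me2 in any list.

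**Figure D3:**
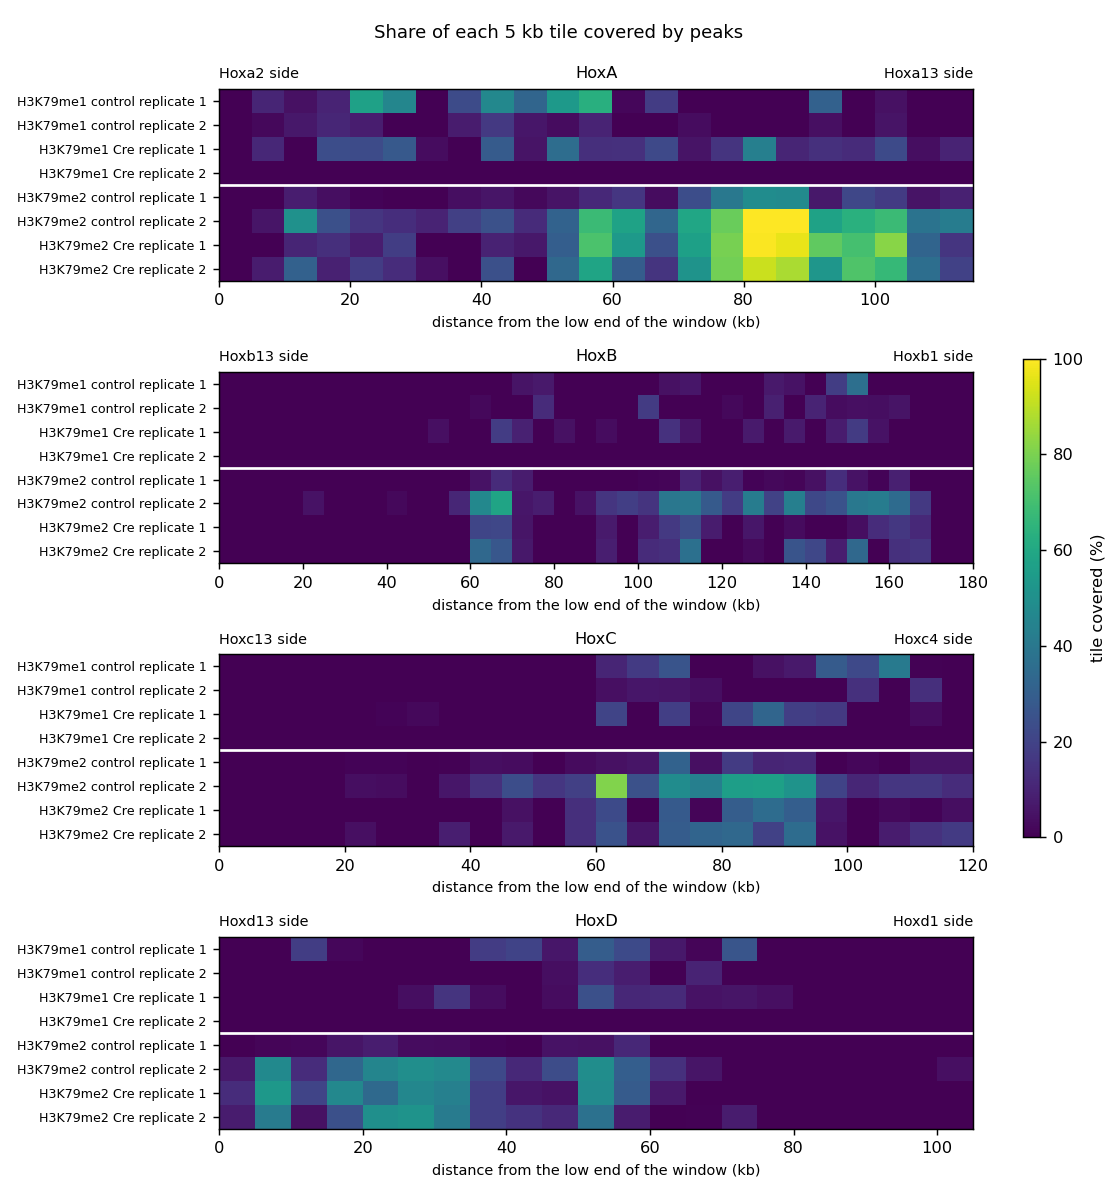
Percent of each 5 kb tile covered by peaks along the 4 Hox windows, with position in kb from the low-coordinate end on the x axis and 1 row per library, H3K79me1 above the white line and H3K79me2 below it. The brightest H3K79me2 tiles lie at 80 to 90 kb in HoxA, where both H3K79me1 controls are at 0, and the low-coordinate ends of HoxB and HoxC are dark in both marks.

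The mean position of the covered bases summarised this order. In HoxA it was 45.4 and 43.1 kb for H3K79me1 in the controls and 60.1 kb in Cre replicate 1, against 78.2, 72.5, 78.3 and 75.5 kb for H3K79me2. In HoxD it was 48.7, 57.4 and 52.4 kb for H3K79me1, against 37.0, 33.4, 29.0 and 30.1 kb for H3K79me2. In HoxC it was 90.6, 92.2 and 81.9 kb for H3K79me1, against 78.3, 76.8, 79.6 and 80.5 kb for H3K79me2. The lists of the 2 marks did not overlap in these 3 clusters, and in each the H3K79me2 centre lay toward the group 13 gene. In HoxB they overlapped, with means of 121 kb for H3K79me1 and 115 kb for H3K79me2.

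A lack of overlap between the marks was found in 29.5% of tiles of the size of HoxA, 30.1% of the size of HoxD, 29.9% of the size of HoxC and 29.2% of the size of HoxB, over tiles with peaks in the same 7 lists. The distance between the marks was larger in HoxA and HoxD than in most such tiles. The mean H3K79me1 centre lay 26.6 kb from that of H3K79me2 in HoxA, and 2.76% of 6264 tiles had a distance at least as large. In HoxD the distance was 20.5 kb, reached by 4.94% of 6473 tiles. In HoxC it was 9.43 kb, reached by 32.6% of 6175 tiles, and in HoxB 5.89 kb, reached by 65.8% of 5108 tiles. The marks were called with different p settings and antibodies, whose part in these distances was not tested.

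**Figure D4:**
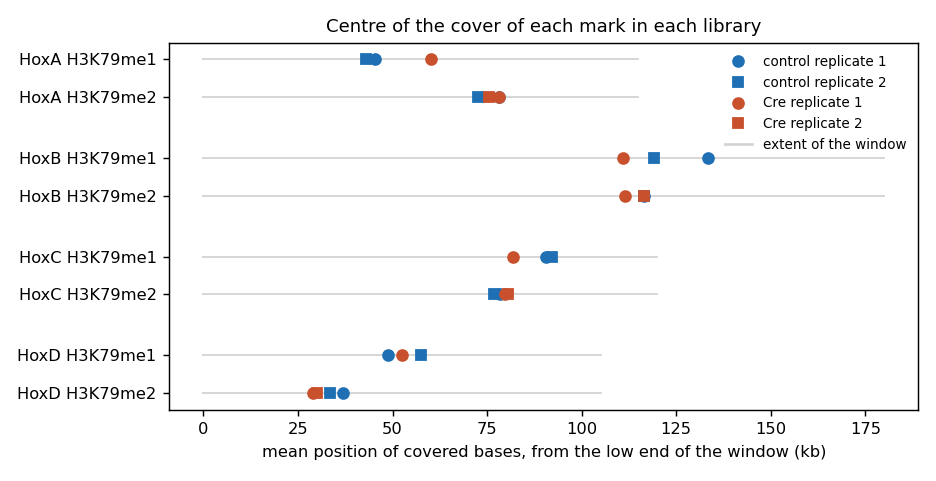
Mean position of the covered bases in each library, in kb from the low-coordinate end of the window, for both marks in the 4 clusters, with a grey line for the extent of each window. In HoxA the H3K79me1 points lie at 43.1 to 60.1 kb and the H3K79me2 points at 72.5 to 78.3 kb.

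Less of the H3K79me2 cover of the clusters than of the genome lay inside H3K79me1 peaks. With the H3K79me1 peaks of both libraries of a condition joined, 15.0% and 15.9% of the Hox H3K79me2 length of the controls lay inside them, and 22.3% and 17.3% after Cre. Over the genome these shares were 59.4% and 60.6% in the controls, then 64.8% and 53.1% after Cre. The Hox share was lower than the genome's share in each of the 4 lists. HoxA had 9.38% and 19.5% in the controls, then 24.8% and 21.9% after Cre. HoxB had 21.4% and 12.1%, then 16.3% and 8.31%. HoxC had 23.3% and 15.1%, then 37.5% and 22.0%, and HoxD had 16.6% and 13.9%, then 12.0% and 9.40%. All Hox H3K79me1 of the Cre group came from Cre replicate 1.

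The low share was set against tiles of the same size with at least as much H3K79me2. For HoxA none of 87, 54, 75 and 59 such tiles in the 4 lists had a share as low, and their median shares were 68.7%, 77.7%, 76.2% and 74.3%. For HoxD the counts were 27 of 1930 tiles in control replicate 1 and 0 of 718, 630 and 689 in the other lists. For HoxB they were 13 of 1040 in control replicate 1 and 0 of 412, 1949 and 1171, and for HoxC 12 of 660, 0 of 417, 30 of 1815 and 1 of 1034. The Hox windows also held less H3K79me1 than those tiles. The union of the H3K79me1 controls covered 20.0% of HoxA, and that of the Cre libraries 15.0%, against medians of 46.1% and 54.2% in the tiles of the control lists and 43.2% and 43.6% in those of the Cre lists. For HoxB, HoxC and HoxD the unions covered 4.35%, 8.40% and 8.43% in control and 2.87%, 5.66% and 4.19% after Cre, so in each of these windows the share of H3K79me2 inside H3K79me1 was above the share of the window that H3K79me1 covered. In HoxA it was below that share in both controls and above it in both Cre libraries. How far the low overlap follows from the sparse H3K79me1 was not tested. In the opposite direction, 37.4% and 58.9% of the Hox H3K79me1 length of the controls lay inside H3K79me2 peaks, against 32.5% and 44.0% over the genome.

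**Figure D5:**
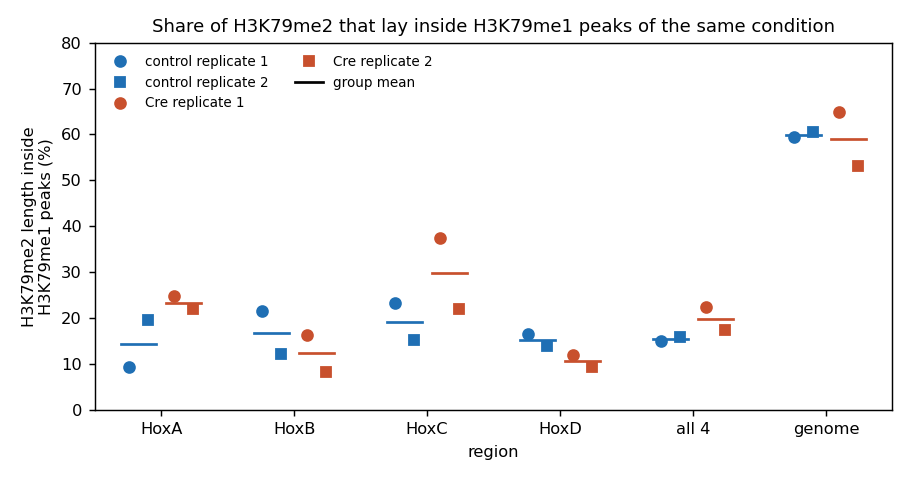
Percent of the H3K79me2 length that lay inside H3K79me1 peaks of the same condition, in each cluster, in the 4 windows together and over the genome, with 1 point per H3K79me2 library and a line at each group mean of 2 libraries. Every Hox point lies at or below 37.5%, and the genome points lie between 53.1% and 64.8%.

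What the 2 H3K79me2 controls shared in HoxA was almost all found again after Cre. The length covered in both controls was 12.3 kb in HoxA, of which Cre replicates 1 and 2 covered 93.0% and 91.9%. In the other clusters this length was short and less of it was found again. It was 4.57 kb in HoxC, of which 29.6% and 58.2% was covered, and 2.11 kb in HoxB, of which 36.3% and 59.1% was covered. It was 1.64 kb in HoxD, of which 42.6% and 68.4% was covered. For all windows the retained share was 69.1% and 79.2% of 20.6 kb, against 74.7% and 78.5% over the genome. The genome's shares were not matched in cover to the windows, and HoxA was the most covered window in both Cre lists. How far the retained shares follow from cover was not tested. All 4 H3K79me2 lists shared 40 intervals with 10682 bp in HoxA, 5 with 625 bp in HoxB, 6 with 930 bp in HoxC and 7 with 531 bp in HoxD. The mean retained share of all windows was 44.8% without control replicate 1, since the shared length is then the cover of control replicate 2 alone.

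The widest shared H3K79me2 intervals of HoxA lay within its densest stretch, from 80 to 90.5 kb. In HoxA the widest H3K79me2 interval of both controls was chr6:52180157-52181207 (1051 bp), which Cre replicate 1 covered fully and Cre replicate 2 to 94.9%. The widest of both Cre libraries was chr6:52185643-52190546 (4904 bp), covered at 51.2% and 98.5% in the controls. In HoxD the widest of both Cre libraries, chr2:74506555-74508451 (1897 bp), lay near the low-coordinate end and was covered at 3.80% and 100% in the controls. The widest of both controls in HoxD, chr2:74549503-74549752 (250 bp), was covered at 0% and 100% after Cre. In HoxC the widest of both controls, chr15:102821417-102821879 (463 bp), was covered fully in both Cre libraries and lay within the widest of both Cre libraries, chr15:102820985-102822026 (1042 bp). In HoxB the widest of both controls, chr11:96118706-96119202 (497 bp), was covered at 45.3% and 55.9% after Cre. The widest of both Cre libraries in HoxB, chr11:96160315-96161341 (1027 bp), was covered at 21.9% and 80.2% in the controls.

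H3K79me1 peaks of the clusters were hardly shared between the controls. Both controls covered only 1.82 kb of the 4 windows, 1.21 kb of it in HoxA. Control replicate 2 covered 4.57% of the Hox length of control replicate 1, against 27.5% over the genome, and control replicate 1 covered 15.5% of that of replicate 2, against 60.4%. These genome shares were not matched to the windows in cover or peak width. Of the 1.82 kb, Cre replicate 1 covered 21.6% and Cre replicate 2 covered 0%, so retention of H3K79me1 rests on very short stretches. The widest H3K79me1 intervals of both controls were chr6:52142420-52142875 (456 bp) in HoxA and chr2:74553513-74553742 (230 bp) in HoxD. In HoxC they shared at most chr15:102852652-102852758 (107 bp) and in HoxB chr11:96201443-96201549 (107 bp). Cre replicate 1 covered 48.7% of the HoxA interval and none of the other three.

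At a finer scale, 104 tiles of 5 kb make up the 4 windows, and 47 of them passed the minimum mean H3K79me2 cover of 10% over the 4 lists. Both Cre libraries lay below both controls in 2 of the 47, against 0.537% of all 22162 tiles tested, and above both controls in 2, against 18.1% of all. The HoxB tile from 145 to 150 kb (chr11:96195001-96200000) was covered at 12.9% and 25.0% in the controls and at 0% and 8.00% after Cre. The HoxC tile from 70 to 75 kb named above was the other that was lower, with 40.2% ± 12.1 (SD, n = 2) in control and 28.8% ± 0.552 (SD, n = 2) after Cre. The HoxA tile from 95 to 100 kb (chr6:52195001-52200000) was higher after Cre, at 21.3% and 63.6% in the controls, then 70.4% and 72.6% after Cre. The HoxA tile from 75 to 80 kb (chr6:52175001-52180000) was at 40.0% and 77.1% in the controls and at 79.4% and 78.6% after Cre. The tile from 75 to 80 kb adjoined the densest stretch of the window. The tile from 95 to 100 kb lay beyond the tile from 90 to 95 kb, whose mean H3K79me2 cover was lower (48.1% against 57.0%).

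The median Cre minus control difference of the tested H3K79me2 tiles was 12.5 points in the 18 of HoxA, -6.74 in the 13 of HoxB, -6.15 in the 7 of HoxC and 16.1 in the 9 of HoxD. Over all 47 it was 1.69 points, against 8.48 over all tiles tested. For H3K79me1, 16 Hox tiles were tested, 10 of them in HoxA, and their median difference was -10.0 points against -23.2 over all 38007 tiles tested. Both Cre libraries lay below both controls in 1 of the 16, against 45.3% of all tiles tested, and above both in none, against 0.111% of all. That tile, in HoxA from 45 to 50 kb (chr6:52145001-52150000), was covered at 32.8% and 6.06% in the controls and at 5.16% and 0% after Cre. Cre replicate 2 was at 0% in every Hox tile, so no Hox tile could have both Cre libraries above both controls. The order below rested on Cre replicate 1 alone and could not arise in a Hox tile where a control was at 0%. Without control replicate 1 the median H3K79me1 difference of the Hox tiles was 3.21 points, against -9.34 over all tiles tested. Without Cre replicate 2 it was -0.275 points, against -12 over all. The median H3K79me2 difference of the Hox tiles was -11.0 points without control replicate 1, against -6.11 over all tiles tested. Without control replicate 2 it was 16.7 points, against 22.4 over all.

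A fit with limma over all tiles tested called no tile of either mark at a Benjamini-Hochberg adjusted p of 0.05, which is 0% of all tiles tested. At an unadjusted p under 0.05 it had 308 H3K79me1 tiles and 9 H3K79me2 tiles, none in a Hox window. The smallest adjusted p of a Hox tile in limma was 0.634 for H3K79me1 and 1 for H3K79me2. Without control replicate 2 of its mark, the fit takes the spread of the single control to equal that of the Cre group. Its calls are therefore not read as changes. The median differences were then -25.8 points in the Hox H3K79me1 tiles, against -37.0 over all H3K79me1 tiles tested. For H3K79me2 they were 16.7 points in the Hox tiles and 22.4 points over all.

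The fold enrichments, p-values and widths of single peaks, which are the authors' own, showed wide H3K79me2 peaks in HoxA. The widest HoxA peak of H3K79me2 measured 13593 bp in control replicate 2, where it ranked 17th of 194520 peaks by width. The widest measured 6626 bp in Cre replicate 1 and 4904 bp in Cre replicate 2, ranking 259th and 278th in their lists, and 1051 bp in control replicate 1. Of the HoxA H3K79me2 peaks, 10 of 52, 16 of 64, 6 of 42 and 13 of 50 were among the widest 10.0% of their own list. Their median fold enrichments were 2.26 and 1.82 in the controls, then 1.90 and 1.86 after Cre, close to the medians of the whole lists, 2.36, 1.83, 1.83 and 1.81. By fold enrichment, 1.92%, 15.6%, 26.2% and 14% of them were among the top 10.0% of their lists. The widest Hox peak of H3K79me1 was in HoxA at 3454 bp in control replicate 1 and 1206 bp in Cre replicate 1, and in HoxC at 674 bp in control replicate 2. No Hox peak of H3K79me1 reached a −log10 p-value of 2, and the highest was 1.95, in HoxA. Over the genome, too, peaks at that level left few H3K79me1 tiles: 1444 of 5 kb passed the minimum mean cover, against 38007 with all peaks.

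The profiles of H3K79me2 along the windows resembled each other more than those of H3K79me1 did. Over the 104 tiles Pearson's r was 0.770 between the H3K79me2 controls and 0.915 between the H3K79me2 Cre libraries, and 0.771 to 0.880 between libraries of different groups. It was 0.410 between the H3K79me1 controls. Within HoxA, over 23 tiles, the H3K79me2 lists had r from 0.837 to 0.953, and each H3K79me1 control had a negative r with each H3K79me2 list, from -0.415 to -0.207. H3K79me1 Cre replicate 1 had positive r with the H3K79me2 lists in HoxA, from 0.228 to 0.307. These values are descriptions, since neighbouring tiles share peaks and the tiles of a list share its depth.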

How the data were processed

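ChIP-seq gave peaks of H3K79me1 and H3K79me2, with 2 control and 2 Cre libraries per mark, grouped by their titles; the RNAPII libraries (4) are not analysed here. Per the labels' protocols, each precipitation held 7.1 µg of sample chromatin and 133 ng from human 293T cells as a spike-in, and nothing in the lists shows whether it was used for scaling. The submitters' processing notes name MACS2, Bowtie2, SAMtools 1.2, bedtools, deepTools and HOMER, and as builds mm9 and hg19. By the deposited peak names, broad peaks were called per library over an input, at p settings of 0.001 for H3K79me1 and 1e-04 for H3K79me2. The lists nevertheless hold peaks down to a −log10 p-value of about 1. Each deposited peak has the authors' score, fold enrichment (a linear ratio), −log10 q-value and −log10 p-value. Every score equalled 10 times its −log10 q, cut to a whole number. A list shows where signal passed a threshold, not the level of a mark. The H3K79me1 list of control replicate 1 held no peak on chromosome X, so tiles were taken from autosomes.

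The members and lists were chosen with earlier results of these data known. Covered share was the length of a library's peaks clipped to a window, divided by the window's length. The length of the genome was taken as 2641 Mb, adding up each chromosome's last peak end. Window shares and their ratios to the genome were compared by exact two-sided permutation tests. The planned log2 ratio could not be formed for H3K79me1, where 1 library had no Hox peak, so the linear ratio was used. Tiles of 5 kb with a mean cover of at least 10% were fitted with limma (empirical Bayes with trend, Benjamini-Hochberg at 0.05). The fit was first run on simulated tiles with independent noise, which checks the code and not its behaviour on lists as unequal as these. Background tiles had the length of each window.

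Tiles and intervals were named by rule: per cluster and mark the tile of highest mean cover and the widest interval of both controls and of both Cre libraries, and per mark up to 3 falling and 3 rising tiles without overlap between groups. Alternatives were peaks with −log10 p of at least 2, equal peak numbers, peaks of at least 500 bp, merging within 1 kb, tiles of 10 and 50 kb, other minimum covers, cover relative to the genome, the replicate block, and each library left out. Those for single clusters relative to the genome, and a crossed block, were chosen after seeing the data. Promoter sequences were not used. Tools were limma 3.58.1 in R 4.3.3, and SciPy 1.17.1, NumPy 2.4.6, pandas 2.3.3 and Matplotlib 3.10.9 in Python 3.11.15.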

Additional observations from a re-analysis of the deposited data

How the results depend on the processing

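Of 160 alternatives, 120 kept the direction and side of the threshold or the size, 24 reversed and 16 moved. For window shares and their ratios no alternative could change the side of the threshold, since the smallest p of the exact permutation test is 0.333. The replicate block leaves their differences as they are by design, so its entries among the 120 are no check of them. Leaving out each library in turn gave H3K79me1 differences of -10.5 to 4.46 points in HoxA, -2.21 to 0.664 in HoxB, -4.26 to 1.40 in HoxC and -5.03 to 0.438 in HoxD. For H3K79me2 the ranges were -6.30 to 23.7 in HoxA, -10.9 to 3.47 in HoxB, -12.7 to 4.47 in HoxC and -2.69 to 14.3 in HoxD. Relative to the genome, the difference ranged from -1.42 to 1.42 (linear ratio, H3K79me1), from -0.10 to 5.31e-04 (log2, H3K79me2) and from -0.0562 to 0.31 (log2, H3K79me2 in HoxA). Hox tiles called by limma ranged from 0 to 3 for H3K79me1 and 0 to 7 for H3K79me2. The 3 and the 7 came only from the fits without control replicate 2 of the mark. Those fits rest on a single control and also called tiles outside the Hox windows, so no conclusion is drawn from these counts. The retained H3K79me2 share ranged from 44.8% to 79.2%.

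With −log10 p of at least 2, the H3K79me2 difference was -0.725 points in HoxD and 1.32 (log2) relative to the genome, 2.08 for HoxA alone, 8.15% was retained, and 0 of 6 H3K79me2 Hox tiles lay below the controls (30.0% of all tiles). With equal peak numbers, the H3K79me1 differences were 0.0581 points in HoxB, 0.273 in HoxC and 0.235 in HoxD, the H3K79me2 differences 1.58 points in HoxB and 0.15 (log2) relative to the genome, and 0 of 30 H3K79me2 Hox tiles lay below (0.385% of all). With peaks of at least 500 bp, the relative differences were -0.344 (H3K79me1) and 0.23 (log2, H3K79me2), 92.4% was retained, and 0 of 5 H3K79me1 (31.8% of all) and 0 of 32 H3K79me2 Hox tiles (0.472% of all) lay below. With peaks merged, 82.8% was retained, 4 of 23 H3K79me1 Hox tiles (51.0% of all tiles) and 9 of 60 H3K79me2 Hox tiles (3.13% of all) lay below, and HoxA relative to the genome was -0.0795 (log2). A minimum cover of 2% gave 8 of 52 such tiles for H3K79me1 (42.1% of all) and 8 of 74 for H3K79me2 (4.58% of all). Both Cre libraries lay above both controls in 3 of 6 H3K79me2 Hox tiles with −log10 p of at least 2 (13.2% of all tiles). With equal peak numbers it was 8 of 30 (29.5% of all), and with peaks of at least 500 bp 6 of 32 (23.8% of all). With peaks merged it was 3 of 60 (14.2% of all), and at a minimum cover of 2% 3 of 74 (13.5% of all). On the relative log2 scale limma called 2 of 16 H3K79me1 Hox tiles, 1 lower and 1 higher, against 2047 of all 38007 tiles (5.39%). Fewer peaks or tiles enter the stricter settings; the cause of the other changes was not tested.

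No label says that replicate numbers pair libraries. With the number as a block, limma called 9817 of all 38007 H3K79me1 tiles (25.8%), 9781 of them lower, but 0 of 16 Hox tiles (smallest adjusted p = 0.0617), and no H3K79me2 tile. The window differences kept their values (for example -3.05 points for H3K79me1 and 8.72 points for H3K79me2 in HoxA, -0.05 on the log2 scale for H3K79me2 relative to the genome); the smallest exact p is then 0.5. Deviations of same-numbered libraries correlated over tiles at 0.247 for H3K79me1 and -0.167 for H3K79me2, and a crossed block also called 0 H3K79me2 tiles. Not run for lack of Hox peaks were the H3K79me1 tile counts with −log10 p of at least 2 and with equal peak numbers, and HoxB, HoxC and HoxD ratios where a list was at 0.

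Having 2 libraries per group and an unknown depth limits all comparisons, and a p above the threshold does not show that groups are alike.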
